A study of Nothobranchius furzeri with 20 samples.

Results

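RNA-seq of the brain of the turquoise killifish Nothobranchius furzeri (strain GRZ, males) was used to compare ages of 10 and 14 weeks with ages of 5 and 7 weeks. The libraries were chosen by their age label. The older side held 10 libraries, 5 of 10 weeks and 5 of 14 weeks, and the younger side held 10, 5 of 5 weeks and 5 of 7 weeks. These are all 20 libraries of the series. The labels name no treatment, and strain, sex and tissue are shared by every library, so age is the only labelled characteristic that differs. Whether a library came from 1 fish or from pooled brains is not stated; the labels only give each library as a sample of its own. The p-values therefore measure the spread between these samples, which may be technical.

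The turquoise killifish lives in seasonal pools, and GRZ is a laboratory strain known for a very short life, so that ages counted in weeks span maturation and ageing. In vertebrate brains, ageing is generally associated with less production of new neurons and with higher expression of immune and glial genes. The deposited identifiers carry no gene names, and 0 of the 26739 occur in the gene table at hand. The genes are therefore described by level, size of change, course over the ages and length, and the brain label could not be checked against marker genes. In bulk tissue, fewer cells of a type and less RNA per cell cannot be told apart.

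Total counts ran from 12.004 to 30.7 M (M, mega) per library. Depth, the number of genes with a read and the share of counts in the 10 most abundant genes did not pass a test between the sides (two-sided permutation tests over libraries, adjusted p = 0.61, 0.69 and 0.58 over 4 library values). A set of 3 younger libraries stood apart: their median Spearman rho with all other libraries was the lowest, 0.921 in 7-week replicate 3, 0.954 in 5-week replicate 5 and 0.955 in 5-week replicate 4, against a median of 0.981. Because the older side has none of these, the main counts are given with and without them. Separate fits of age pairs were not repeated without them.

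Of 18928 genes expressed highly enough to be tested, 776 were higher and 1530 were lower at 10 and 14 weeks (edgeR's quasi-likelihood test with Benjamini-Hochberg adjustment, adjusted p below 0.05). Together they were 12.2% of the genes tested, 4.1% higher and 8.08% lower, and 66.3% of the genes called were lower. At an unadjusted p below 0.05 there were 1964 higher and 3080 lower genes. Without the 3 libraries that stood apart, 1339 genes were higher and 1640 lower, which brought the lower share to 55.05%. The lower share also moved in other settings. It was 59.8 to 60.9% when any single older library was left out. Among single younger libraries it ran from 57.98%, without 5-week replicate 5, to 68.8%, without 7-week replicate 2. It was 61.5% with DESeq2 and 60.6% with limma-voom. The genes that rose took 3.84 ± 0.309% of a library's counts on the younger side and 5.17 ± 0.296% on the older side (SD, n = 10 each). The genes that fell took 10.1 ± 1.547% on the younger side and 7.42 ± 0.411% on the older side. These shares describe genes chosen for their difference and are no further test.

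Most changes were small. The median log2 fold change was 0.42 among the genes that rose and -0.41 among those that fell, or 1.34-fold and 1.33-fold, with a median standard error of 0.11. The median over all genes tested was -0.01. Without the 3 libraries that stood apart, the medians were 0.44 among the genes then called higher and -0.32 among those called lower. Under 1.5-fold lay 573 of the 776 rises (73.8%) and 1132 of the 1530 falls (74.0%). Changes were called at every level of expression. The share called was 3.60% of genes with a mean under 1 CPM (read counts scaled to library size after TMM), 9.69% from 1 to 10 CPM, 14.4% from 10 to 100 CPM and 12.9% above 100 CPM.

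**Figure D1:**
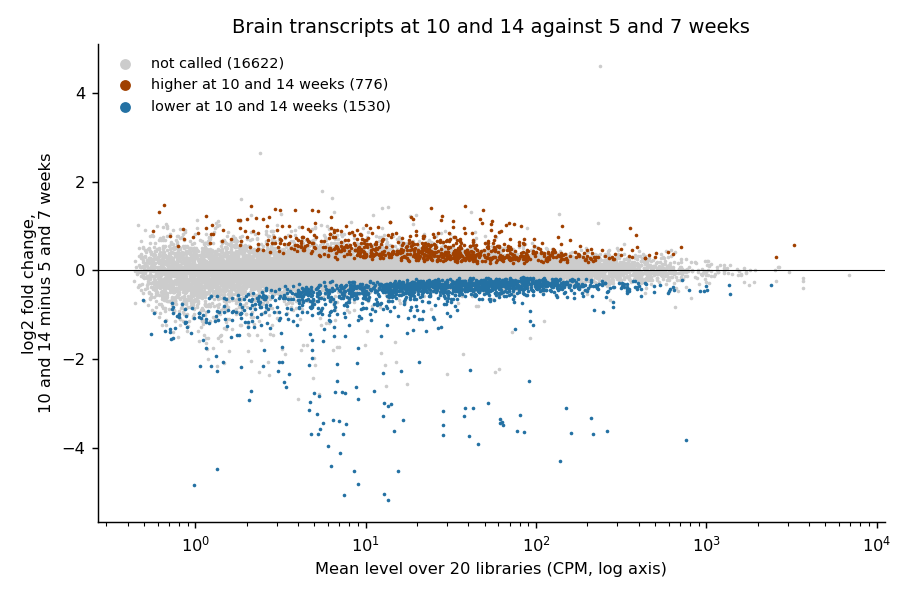
Log2 fold change of the older against the younger side (vertical axis) plotted against the mean level in CPM on a log axis (horizontal axis), 1 point per gene tested, with the 776 higher and 1530 lower genes coloured. Most coloured points lie close to 0, and a group of large falls has no counterpart among the rises called.

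In 95 genes the 10 older libraries did not overlap the 10 younger ones, 21 with all older libraries higher (0.111% of the genes tested) and 74 with all older libraries lower (0.391%). All 95 were among the genes called. Their log2 fold changes ran from 0.29 to 0.95 among the rises and from -4.83 to -0.22 among the falls. No separated rise passed 2-fold, and 7 separated falls did. The count changed with the libraries used and ran from 89 to 170 with 1 library left out. It was 170 when either 7-week replicate 5 or 14-week replicate 2 was left out, and 162 when 5-week replicate 5 was. It was 378 without the 3 libraries that stood apart. Fewer libraries are easier to separate, so these counts cannot be set directly against the 95.

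The separated genes are shown by 4 identifiers, the 2 largest rises and the 2 largest falls with a mean of at least 1 CPM. Nfu_g_1_007135 stood at 25.2, 33.2, 29.4, 11.7 and 27.9 CPM in the 5 libraries of 5 weeks and at 35.3, 23.3, 12.5, 27.3 and 30.98 CPM in those of 7 weeks. It reached 69.4, 52.1, 62.2, 41.1 and 54.9 CPM at 10 weeks and 39.5, 47.7, 45.1, 44.2 and 40.2 CPM at 14 weeks. The lowest older library, of 14 weeks, stood above the highest younger one, of 7 weeks, and the lowest younger values came from 5-week replicate 4 and 7-week replicate 3. The side means were 25.7 ± 7.99 and 49.6 ± 9.99 CPM (SD, n = 10 each). The log2 fold change was 0.95 ± 0.17 (SE, by edgeR's quasi-likelihood test with Benjamini-Hochberg adjustment, adjusted p = 0.0019). Without the 3 libraries that stood apart the log2 fold change was 0.76 (edgeR, adjusted p = 0.0006).

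Nfu_g_1_017239 had a narrower margin. Its values were 18.9, 13.8, 13.7, 16.1 and 16.7 CPM at 5 weeks and 21.4, 20.3, 14.6, 20.2 and 22.6262 CPM at 7 weeks. They were 26.2, 35.8, 39.5, 28.1 and 38.1 CPM at 10 weeks and 32.4, 31.3, 38.1, 25.8 and 22.6319 CPM at 14 weeks. The sides touched at 7-week replicate 5 and 14-week replicate 5. The log2 fold change was 0.83 ± 0.12 (SE; edgeR, adjusted p = 0.00034).

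Nfu_g_1_022937 fell from a low level to almost no reads. It stood at 4.97, 3.76, 0.994, 1.21 and 1.05 CPM at 5 weeks and at 2.45, 1.27, 6.91, 1.46 and 1.62 CPM at 7 weeks. It stood at 0.251, 0.126, 0.116, 0.421 and 0 CPM at 10 weeks and at 0.0442, 0, 0.0518, 0.0436 and 0 CPM at 14 weeks. Every younger library had reads and 3 older libraries had none. The younger libraries held 561 counts and the older ones 24, a ratio per total count of 21.9 (exact 95% interval 14.5 to 34.4, which covers counting error only). The fitted log2 fold change was -4.47 ± 0.56 (SE; edgeR, adjusted p = 0.00011); with 3 libraries at 0 its size depends on the prior count.

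Nfu_g_1_017355 fell at a level where every library had reads. It stood at 9.94, 16.5, 7.01, 14.0 and 10.2 CPM at 5 weeks and at 5.18, 16.7, 9.36, 15.8 and 5.71 CPM at 7 weeks. It stood at 2.34, 3.70, 1.62, 2.28 and 3.87 CPM at 10 weeks and at 1.68, 2.98, 3.52, 0.959 and 2.55 CPM at 14 weeks. The highest older library lay below the lowest younger one. The side means were 11.04 ± 4.44 and 2.55 ± 0.970 CPM (SD, n = 10 each), and the log2 fold change was -2.11 ± 0.26 (SE; by edgeR, adjusted p = 9.6e-05).

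**Figure D2:**
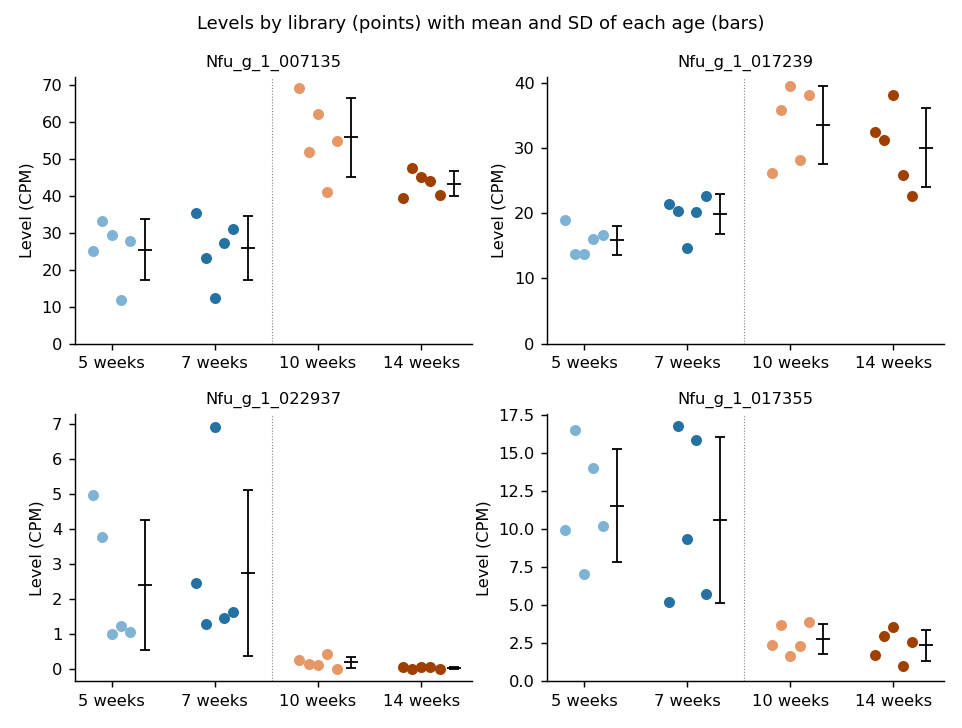
CPM of the 4 named identifiers in each library (vertical axes) by age in weeks (horizontal axis), 1 point per library, with the mean and SD of each age as bars. In each panel the 10 older libraries lie on one side of the 10 younger ones.

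The genes called moved mainly between 7 and 10 weeks. In a fit with 1 mean per age, the genes that rose had a median log2 step of -0.0025 from 5 to 7 weeks, 0.42 from 7 to 10 weeks and -0.0046 from 10 to 14 weeks. The genes that fell had median steps of -0.036, -0.43 and 0.056. Their first step depended on single libraries: among the genes called lower without 7-week replicate 3 it was -0.13, and among those called lower without 5-week replicate 4 it was 0.012. It was -0.07, with -0.31 from 7 to 10 weeks, without the 3 libraries that stood apart. The comparison favours this by construction, since it weights the step from 7 to 10 weeks by 1 and each other step by 0.5. The step from 7 to 10 weeks was the largest in the direction of change in 89.0% of the rises and 89.3% of the falls, against 56.99% of all genes tested. Without 7-week replicate 3 these shares were 86.1%, 75.1% and 48.2%. Both older age means lay above both younger ones in 773 of the 776 rises and below them in 1516 of the 1530 falls. Over all genes tested, 54.1% had their older means clear of the younger ones in either direction. The rises and falls were called from the same libraries for a difference between the sides. Their steps, the shares by largest step and their clear age means are therefore a description and no further test. All genes tested were not chosen this way, so their 56.99% is no equal reference.

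Few genes were called as also differing between the ages pooled on a side, and this count rested on single libraries. With 5 libraries per age, a gene not called may still differ. A test of 7 against 5 and 14 against 10 weeks together called 14 genes (0.074%; edgeR, adjusted p below 0.05), 2 of them among the 2306. At an unadjusted p below 0.05 it called 2025 genes, 10.3% of the 2306 and 10.7% of all genes tested. If no gene differed, a share of about 0.05 would be called at that threshold. Leaving out 7-week replicate 3 gave 262 genes, leaving out 5-week replicate 4 gave 55 and leaving out 7-week replicate 2 gave 27. The count was 207 without the 3 libraries that stood apart. Between 3 and 9 genes were called without any of 10-week replicates 1 to 5, 14-week replicates 1, 3 and 5, 5-week replicates 1 and 3 or 7-week replicate 4.

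Taken singly, 7 against 5 weeks called 3 rises and 3 falls (0.0317%), and 14 against 10 weeks called 19 rises and no fall (0.1%). The count for 7 against 5 weeks became 295 on leaving out 7-week replicate 3, 13 for its replicate 5 and 3 for its replicate 2, and 10 on leaving out 5-week replicate 4. The count for 14 against 10 weeks ran from 3, without 10-week replicate 1, 2, 3 or 5, to 43, without 5-week replicate 4. It was 35 and 32 without 7-week replicate 3 or 2, and from 4 to 8 without 10-week replicate 4, 14-week replicates 1 to 4, 5-week replicate 1 or 3 or 7-week replicate 4. Without the 3 libraries that stood apart the counts were 93 and 96.

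The 4 pairs of an older and a younger age gave very different numbers of calls when each was fitted alone with its 10 libraries. The fit of 10 against 5 weeks called 845 rises and 1042 falls (9.97%), and the fit of 14 against 7 weeks called 58 rises and 21 falls (0.417%). The fit of 10 against 7 weeks called 25 rises and 44 falls (0.365%), and that of 14 against 5 weeks called 87 rises and 119 falls (1.09%). Both fits with 7 weeks held 7-week replicate 3, the library of lowest rho (0.921). Leaving it out moved the count for 7 against 5 weeks from 6 to 295. Both fits with 5 weeks held 5-week replicates 4 and 5, which also stood apart. The separate fits were not repeated without any of these libraries, so their part in the differing numbers was not tested.

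Directions could be read across pairs that share no library. Among the 845 rises of 10 against 5 weeks, 569 (67.3%) also had a log2 fold change above 0 in the fit of 14 against 7 weeks, where the median of the 845 was 0.11. Among the 1042 falls, 904 (86.8%) were below 0 there, with a median of -0.29. Over all genes tested, 61.5% had the same sign in both fits, and the share of the rises lay near this value. In the fit of 14 against 7 weeks, 49.3% of all genes tested were above 0 and 50.7% below 0. In the reverse direction, 45 of the 58 rises and 19 of the 21 falls of 14 against 7 weeks had the same sign in the fit of 10 against 5 weeks. The genes called in the same direction in both pairs were 8 rises and 13 falls. The rises were out of 845 and 58, and the falls out of 1042 and 21. Over all genes tested, 9.97% were called in 10 against 5 weeks and 0.417% in 14 against 7 weeks. How many calls unrelated fits would share was not worked out, so these counts are a description. In the other pair of fits, 22 of the 25 rises and 40 of the 44 falls of 10 against 7 weeks had the same sign in 14 against 5 weeks. Of the genes called in 14 against 5 weeks, 82 of the 87 rises and 114 of the 119 falls had the same sign in 10 against 7 weeks, against 68.6% of all genes tested.

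The change between 7 and 14 weeks differed from that between 5 and 10 weeks in 23 genes (0.122%; edgeR, adjusted p below 0.05), 21 with the more positive change between 7 and 14 weeks. That count became 483 on leaving out 7-week replicate 3, 1 on leaving out its replicate 1 and 56 on leaving out 5-week replicate 4. It lay between 5 and 15 without any of 10-week replicates 1 to 5, 14-week replicates 1 to 3, 5-week replicates 1, 3 and 5 or 7-week replicate 4. It was 451 without the 3 libraries that stood apart. The difference tested equals the step from 10 to 14 weeks minus the step from 5 to 7 weeks. It uses the same steps as the tests within a side and is no separate result. The difference tested next is the sum of the same steps. The change between 5 and 14 weeks differed from that between 7 and 10 weeks in 0 genes (edgeR; 0% of the genes tested; 1196 at an unadjusted p below 0.05; lowest adjusted p = 0.28), and in 1 gene without 7-week replicate 2.

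The largest falls came mostly from 1 younger library. No rise called passed 4-fold and 82 falls called did, while 41 rises and 173 falls passed 2-fold. In 70 of the 82, a single younger library held over 50% of the younger side's summed CPM. This was 5-week replicate 4 in 64 genes, 7-week replicate 2 in 5 and 7-week replicate 3 in 1. The geometric mean of CPM plus 0.1 over the 82 genes was 106.0 CPM in 5-week replicate 4, 25.6 CPM in 7-week replicate 2 and 7.94 CPM in 5-week replicate 5. It was 1.803 to 3.79 CPM in the other younger libraries and 1.46 to 3.27 CPM in the older ones. Apart from 5-week replicates 4 and 5 and 7-week replicate 2, the sides overlapped. Among the 16622 genes not called, 2 rises and 17 falls also passed 4-fold. The largest rise not called had a log2 fold change of 4.62 (edgeR, adjusted p = 0.057). In it, 7 older libraries lay above the younger median.

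By the medians of the sides in place of the fitted means, 3 of the 82 falls passed 4-fold and 8 passed 2-fold (log2 of CPM plus 0.1). Of the 91 falls of 2- to 4-fold, 53 passed 2-fold by medians, and of the 41 rises above 2-fold, 25 did. The count of falls above 4-fold became 12 on leaving out 5-week replicate 4, 54 on leaving out 7-week replicate 2 and 7 on leaving out both. It was 17 without the 3 libraries of lowest rho. Without those 3 libraries, 97 rises and 65 falls passed 2-fold, and 2 rises and 17 falls passed 4-fold. Without 5-week replicate 4 and 7-week replicate 2, 33 rises and 79 falls passed 2-fold.

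**Figure D3:**
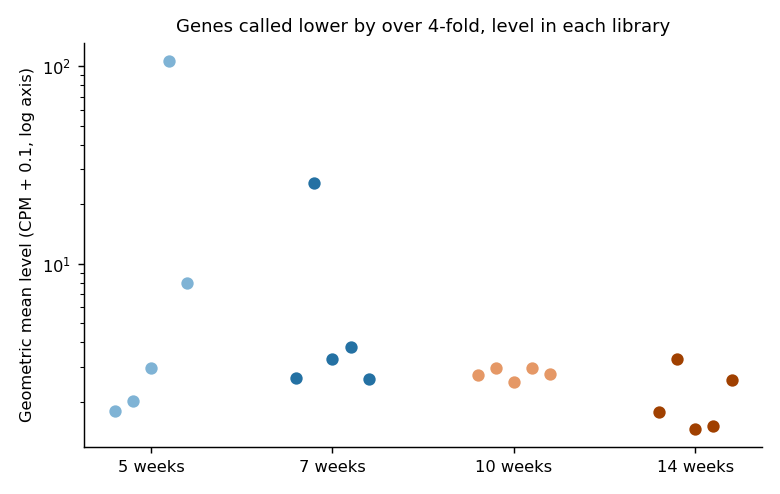
Geometric mean level of the 82 genes with falls above 4-fold in each library (vertical axis, CPM plus 0.1, log scale) by age (horizontal axis), 1 point per library. 5-week replicate 4 at 106.0 CPM and 7-week replicate 2 at 25.6 CPM stand above the other libraries.

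When a library was left out of the test and placed by the genes called from the other 19, 19 of 20 libraries fell nearer their own side. Position was measured as the median over 1599 to 2555 genes, with -1 at the younger mean and 1 at the older mean. The younger libraries lay from -1.57 in 7-week replicate 3 to 0.22 in 7-week replicate 5, and the older ones from 0.18 in 14-week replicate 2 to 1.51 in 10-week replicate 3. 7-week replicate 5 was the exception, with 59.8% of its genes nearer the older mean. 14-week replicate 2 at 0.18 and 10-week replicate 5 at 0.19 also lay close to the middle. 5-week replicate 5 was split, at 0.24 for the genes that rose and -0.65 for those that fell. The 20 placements share most of their libraries, so they are not independent of each other.

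**Figure D4:**
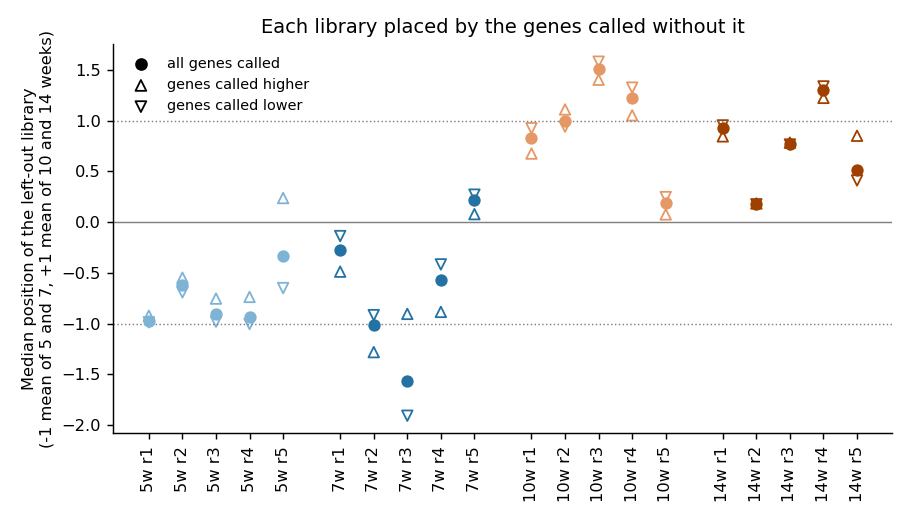
Median position of each library on the genes called without it (vertical axis; -1, younger mean; 1, older mean) by library and age (horizontal axis), with filled points for all genes called and open triangles for rises (up) and falls (down). 7-week replicate 5 at 0.22 is the one library past the middle on the other side.

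The meaning of the running number in each sample title is not stated, and the number tends to increase with age. It runs from 20 to 65 on the younger side and from 57 to 73 on the older side. With the number as a covariate, 144 genes were higher and 258 lower, of which 126 and 240 were among the genes called without it. The number had a correlation of 0.68 with side, so this fit cannot fully tell number and side apart. The 7-week libraries numbered 64 and 65, above every 10-week library, lay at -0.57 and 0.22, and those numbered 48, 53 and 55 lay at -0.27, -1.01 and -1.57.

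Genes that rose were longer than those that fell. The median length was 3882 bases for rises, 2574 for falls and 2706 for all genes tested, with lengths solved from the deposited RPKM values. From the shortest to the longest length quartile, the share higher was 2.24, 2.98, 4.44 and 6.74%, and the share lower was 8.51, 8.58, 9.93 and 5.31%. Without the 3 libraries that stood apart, the shares higher were 5.08, 7.17, 8.08 and 7.82% and the shares lower 8.10, 8.67, 9.72 and 7.99%. The medians were then 3089 bases for rises and 2760 for falls.

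The libraries themselves differed in the level of long against short genes. The median centred log2 level of the longest quartile minus that of the shortest was 0.04 ± 0.10 on the older side and -0.07 ± 0.16 on the younger side (SD, n = 10 each; two-sided permutation test, p = 0.078), lowest at -0.42 in 7-week replicate 3. Without the 3 libraries the younger mean was 0.0011 ± 0.096 (n = 7; permutation test, p = 0.44). The part of this measure in the calls was not tested.

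**Figure D5:**
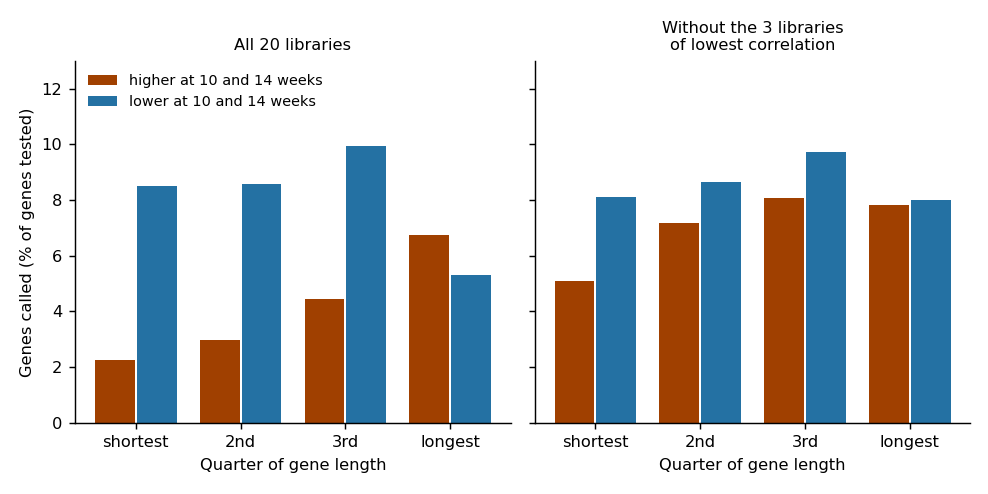
Percent of genes tested that were higher or lower on the older side (vertical axis) in 4 length quartiles from shortest to longest (horizontal axis), with all libraries and without the 3 libraries of lowest rho. With all libraries the share higher rises from 2.24 to 6.74%, and without the 3 it runs from 5.08 to 7.82%.

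No single gene passed the test for a difference in spread between libraries of an age. Limma on the absolute deviations from the age mean called 0 genes (0% of the genes tested; 159 with more and 3318 with less spread on the older side at an unadjusted p below 0.05; lowest adjusted p = 0.15). With deviations from the age median, limma gave 307 genes at an unadjusted p below 0.05, against 3477 from the age mean (lowest adjusted p = 0.94). From the age mean, the spread was smaller on the older side in 76.9% of genes, with medians of 0.18 and 0.25 log2 units. Without 7-week replicate 3 it was smaller in 60.4% of genes. Without the 3 libraries that stood apart it was smaller in 39.0% of genes, with medians of 0.18 on the older and 0.15 on the younger side. Without 7-week replicate 1, 527 genes were called, and all but 1 of them had less spread on the older side. The distance of a library to its age's centroid was 41.6 ± 10.7 on the older and 60.3 ± 22.1 on the younger side (SD, n = 10 each; two-sided permutation test, p = 0.017, adjusted p = 0.069 over 4 library values). Without the 3 libraries the adjusted p was 0.36.

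Of the 2306 genes, 502 rises and 883 falls were called in each of the 20 fits that left out 1 library, and all 95 separated genes were among these 1385. The 95 were picked for separation in the same libraries, so this is no independent test. Called by edgeR with 1 mean per side and with 1 mean per age, by DESeq2 and by limma-voom alike were 698 rises and 1229 falls. In the settings run, 0 genes were called in the opposite direction. The settings reuse mostly the same libraries, so an opposite call was unlikely in advance and this is no independent test.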

How the data were processed

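Libraries were made from total RNA with a TruSeq RNA v2 kit, per the labels' protocols. Per the submitters' processing notes, the tools were featureCounts 1.4.6-p4, CASAVA 1.8.2 and STAR 2.4.1d. Build, annotation and strand setting: not given in the sources used here. The deposited count table holds raw counts of reads per identifier. The deposited RPKM values were divided by library totals that rotate down the rows with a period of 25: 99.8% of values were given back within 0.0011 with the rotation and 4.43% with each library's own total. RPKM is therefore not comparable between libraries and served only for gene lengths and as an alternative.

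Counts were tested in R 4.3.3 with edgeR 4.0.16 (TMM, filterByExpr by side, robust quasi-likelihood fit, 1 mean per side) and Benjamini-Hochberg adjustment over all genes tested. Steps between ages and differences between age pairs came from a fit with 1 mean per age, and spread from limma 3.58.1 on log2 CPM with a prior count of 2. Library values were compared with 100000 permutations. The standard error is the log2 fold change divided by the square root of F. Alternatives used DESeq2 1.42.0, sva 3.50.0, limma-voom, other filters and scalings, and left-out libraries; those on falls above 4-fold, gene length and age pairs were chosen after seeing the data. Library pairs of 1 age were compared by chi-square, using genes that had 20 or more counts; the smallest value per degree of freedom was 8.67, so none was counted as a duplicate. The scripts were tested on simulated data.

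Named identifiers had a mean of at least 1 CPM, an adjusted p below 0.05 and full separation; 21 rises and 72 falls qualified, and the 2 largest in each direction are given because identifiers have no names. The comparison, lists and tests were chosen with earlier results of these data known.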

Additional observations from a re-analysis of the deposited data

Results flagged for a closer look

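Within groups of 5 or 10 libraries, single values stood far from the others by Dixon's criterion, which chance meets in about 1 in 20 groups. Many values were searched in every age and side, so chance alone would give some of these. Nfu_g_1_022937 was highest in 7-week replicate 3, at 6.91 CPM. 5-week replicate 5 had the most genes with a read of the younger libraries, 22938. The 10 most abundant genes took 5.01% of the counts in 5-week replicate 4, the highest share among the 5-week libraries and among the younger ones. The distance to the age's centroid was 111.4 in 7-week replicate 3. The geometric mean of the genes with falls above 4-fold was 106.0 CPM in 5-week replicate 4, far from the others of its age and side, and 25.6 CPM in 7-week replicate 2. These genes were chosen from the same libraries for their high younger levels. The rate of 1 in 20 therefore does not apply to these geometric means, which are a description only. Nfu_g_1_022937 was also chosen from these libraries for its large fall, so the rate does not apply to it either.

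The change from 7 to 14 weeks differed from that from 5 to 10 weeks in 23 genes (edgeR, adjusted p below 0.05). The count ran from 1 to 483 when 1 library was left out. This difference equals that between the steps within the sides, from 10 to 14 and from 5 to 7 weeks. It is no separate result from the tests of those steps.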

How the results depend on the processing

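No paired analysis was possible because the replicate numbers follow accession order and the sample titles carry none. The 2306 calls became 1602 to 2560 when 1 library was left out. They became 402 with the title number as covariate. On deposited RPKM, whose values are not comparable between libraries, they became 195 and 186 with pseudocounts of 1 and 0.1. In the other settings they lay between 2072 and 2979. The 95 separated genes became 89 to 170 with 1 library left out and 378 without the 3 libraries of lowest rho, where fewer libraries had to separate. The 14 genes differing within a side became 3 to 262 with 1 library left out, 207 without the 3 and 4 with limma-voom. The 0 genes called for spread became 0 to 527 with 1 library left out. The 4 named identifiers kept call and direction in every setting run. They were chosen from the same libraries for their call and full separation, so this is no independent test. The cause of these shifts was not tested. Separate fits of age pairs were not repeated without single libraries. Intervals cover counting error only.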
